A study of Mus musculus with 12 samples.

Results

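The genes described here are those of the anterior pituitary hormones *Gh*, *Prl*, *Pomc*, *Cga*, *Tshb*, *Lhb* and *Fshb*, together with the receptor gene *Ghrhr* and the transcription factor gene *Pou1f1*. Their members are the array probe groups (transcript clusters) annotated with 1 of these symbols alone. Of the 9 listed genes, 8 had such a cluster, 1 cluster each, out of 22180 genes with a cluster of their own. The expression of *Pou1f1* was not analysed here. All 8 measured genes passed the filter on low values, which asked for 3 or more arrays with a log2 value above 5. *Prl*, *Cga* and *Fshb* passed it through naive arrays, with 6, 5 and 4 of 6 naive but 2, 1 and 2 of 6 trained arrays above 5.

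The study asked which genes depend on Stau2, an RNA-binding protein of neurons, when mice go through behavioral tests. Expression was measured on Affymetrix Mouse Gene 2.0 ST arrays in lysates of dissected brains of male mice with 12 arrays, taken as 1 mouse each, 3 in each of 4 groups. WT mice were C57Bl/6J, and Stau2GT mice carried the gene trap allele B6.129P2-Stau2Gt(RRG396)Byg. Trained mice of both genotypes had spent 4 weeks in open field, object recognition and Barnes maze tests, whereas naive mice were taken before any training. The labels give 16 to 20 weeks as the age of all groups. The gene trap lowers *Stau2* but does not remove it: the log2 value was 8.07 ± 0.01 (SD, n = 3) in naive Stau2GT against 8.25 ± 0.06 (SD, n = 3) in naive WT brains, and 8.01 ± 0.06 (SD, n = 3) against 8.24 ± 0.07 (SD, n = 3) after training. In both training states the Stau2GT arrays lay below the WT arrays. Markers of neurons, glia and brain endothelium, 11 measured of 12 listed, had mean levels of 9.38 to 9.48 in naive and 9.38 to 9.46 in trained arrays, so the brain label held in all 12.

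The anterior pituitary is a gland below the hypothalamus whose cell types each secrete their own hormone: somatotrophs make growth hormone, lactotrophs prolactin, corticotrophs peptides cut from proopiomelanocortin, thyrotrophs thyrotropin, and gonadotrophs luteinizing hormone and follicle-stimulating hormone. Hypothalamic peptides released into the portal vessels drive or restrain these cells. Apart from *Pomc*, which neurons of the arcuate nucleus also transcribe, these hormone genes are known mainly for their expression in the gland itself. The sources used here do not say whether the gland was taken along with the brain. In a lysate, fewer cells of a type and less RNA per cell cannot be told apart.

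*Pou1f1* encodes the POU factor of somatotrophs, lactotrophs and thyrotrophs. Its binding sites share the core ATGNATA, which was searched on both strands in the 250 bases before the RefSeq start (GRCm38.p6). The sequences below are the promoter of *Prl*, the gene with the widest spread between brains, those of *Cga* and *Fshb*, which followed it most closely, and that of *Pou1f1* itself. Capitals mark matches of ATGNATA on either strand (TATNCAT where the match lies on the other strand).
Prl promoter, chr13:27057320-27057569 (+ strand): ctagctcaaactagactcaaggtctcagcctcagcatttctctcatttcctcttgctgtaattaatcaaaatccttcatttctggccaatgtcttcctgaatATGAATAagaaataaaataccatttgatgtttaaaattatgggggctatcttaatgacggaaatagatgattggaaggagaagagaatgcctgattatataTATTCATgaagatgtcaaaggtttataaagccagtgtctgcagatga
Cga promoter, chr4:34893529-34893778 (+ strand): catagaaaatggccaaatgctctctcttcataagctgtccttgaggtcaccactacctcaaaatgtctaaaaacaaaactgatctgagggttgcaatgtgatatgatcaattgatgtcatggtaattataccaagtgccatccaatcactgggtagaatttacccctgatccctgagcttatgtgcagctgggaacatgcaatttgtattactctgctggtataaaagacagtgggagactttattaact
Fshb promoter, chr2:107059652-107059901 (- strand): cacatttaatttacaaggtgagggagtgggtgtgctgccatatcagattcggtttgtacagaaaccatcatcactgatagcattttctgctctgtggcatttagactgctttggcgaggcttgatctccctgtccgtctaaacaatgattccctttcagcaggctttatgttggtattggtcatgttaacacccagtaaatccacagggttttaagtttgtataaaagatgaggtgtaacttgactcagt
Pou1f1 promoter, chr16:65520262-65520511 (+ strand): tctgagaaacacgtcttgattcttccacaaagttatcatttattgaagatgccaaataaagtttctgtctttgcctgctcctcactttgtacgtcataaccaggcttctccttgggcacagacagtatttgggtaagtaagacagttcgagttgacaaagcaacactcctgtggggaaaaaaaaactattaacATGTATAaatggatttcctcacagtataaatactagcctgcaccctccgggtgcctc

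Of the 7 genes with a promoter in the RefSeq table used, *Prl* held 2 matches, starting 148 and 47 bases before the start of transcription, and *Pou1f1* held 1 at its first start, 57 bases before it. Among all 32851 promoters of this length, 7.92% held the motif. *Pomc*, *Cga*, *Tshb*, *Lhb* and *Fshb* had no match in this window, which says nothing about whether the factor binds there. The gonadotroph motif TGACCTTG, added after values were seen, was present in 1.33% of all promoters and in *Lhb* alone among these genes, 129 bases before the start. TAATCC, the core bound by PITX factors and also added then, was present in 6.25% of all promoters and in none of these. No 2 of the motif matches overlapped.

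*Gh*, the growth hormone gene of somatotrophs, was higher in all naive than in all trained brains. The naive WT arrays gave log2 values of 10.14, 8.76 and 12.91, and the naive Stau2GT arrays gave 12.93, 10.44 and 11.43 (mice 1 to 3 in this order here and below). The trained WT arrays gave 5.42, 5.96 and 5.79, and the trained Stau2GT arrays 5.75, 6.53 and 7.94. The lowest naive value (8.76) and the highest trained value (7.94) did not overlap. Within the naive state the values spread over 4.17 on the log2 scale, or 18.0-fold, while the trained WT values differed by only 0.54. After training *Gh* was lower by 29.4-fold in WT brains (log2 difference -4.88, 95% interval -6.99 to -2.77, limma adjusted p = 0.0360) and by 29.0-fold in Stau2GT brains (-4.86, -6.97 to -2.75, limma adjusted p = 0.0210). The trained values lay near the array medians (5.68 to 5.79) and the table used has no detection calls, so these folds are ratios of RMA values and would be lower bounds if the probes were at background after training.

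*Prl*, the prolactin gene of lactotrophs, was also higher in all naive than in all trained brains, with a wider naive range. Its naive values were 6.55, 5.73 and 10.80 in WT and 11.01, 7.87 and 7.70 in Stau2GT brains. Its trained values were 4.64, 4.82 and 4.72 in WT and 4.24, 5.08 and 5.30 in Stau2GT brains. Naive and trained arrays again did not overlap (lowest naive 5.73, highest trained 5.30), and the naive brains differed among themselves by 5.28, or 38.9-fold. The difference after training was -2.97 in WT (95% interval -5.57 to -0.37, limma adjusted p = 0.252) and -3.99 in Stau2GT brains (-6.59 to -1.39, limma adjusted p = 0.0685), and neither passed the threshold of 0.05. Without naive WT mouse 3 the WT value was -1.41 and without naive Stau2GT mouse 1 the Stau2GT value was -2.91. Of the 6 trained values 4 lay below 5, so the size of these differences has the same limit as for *Gh*.

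**Figure D1:**
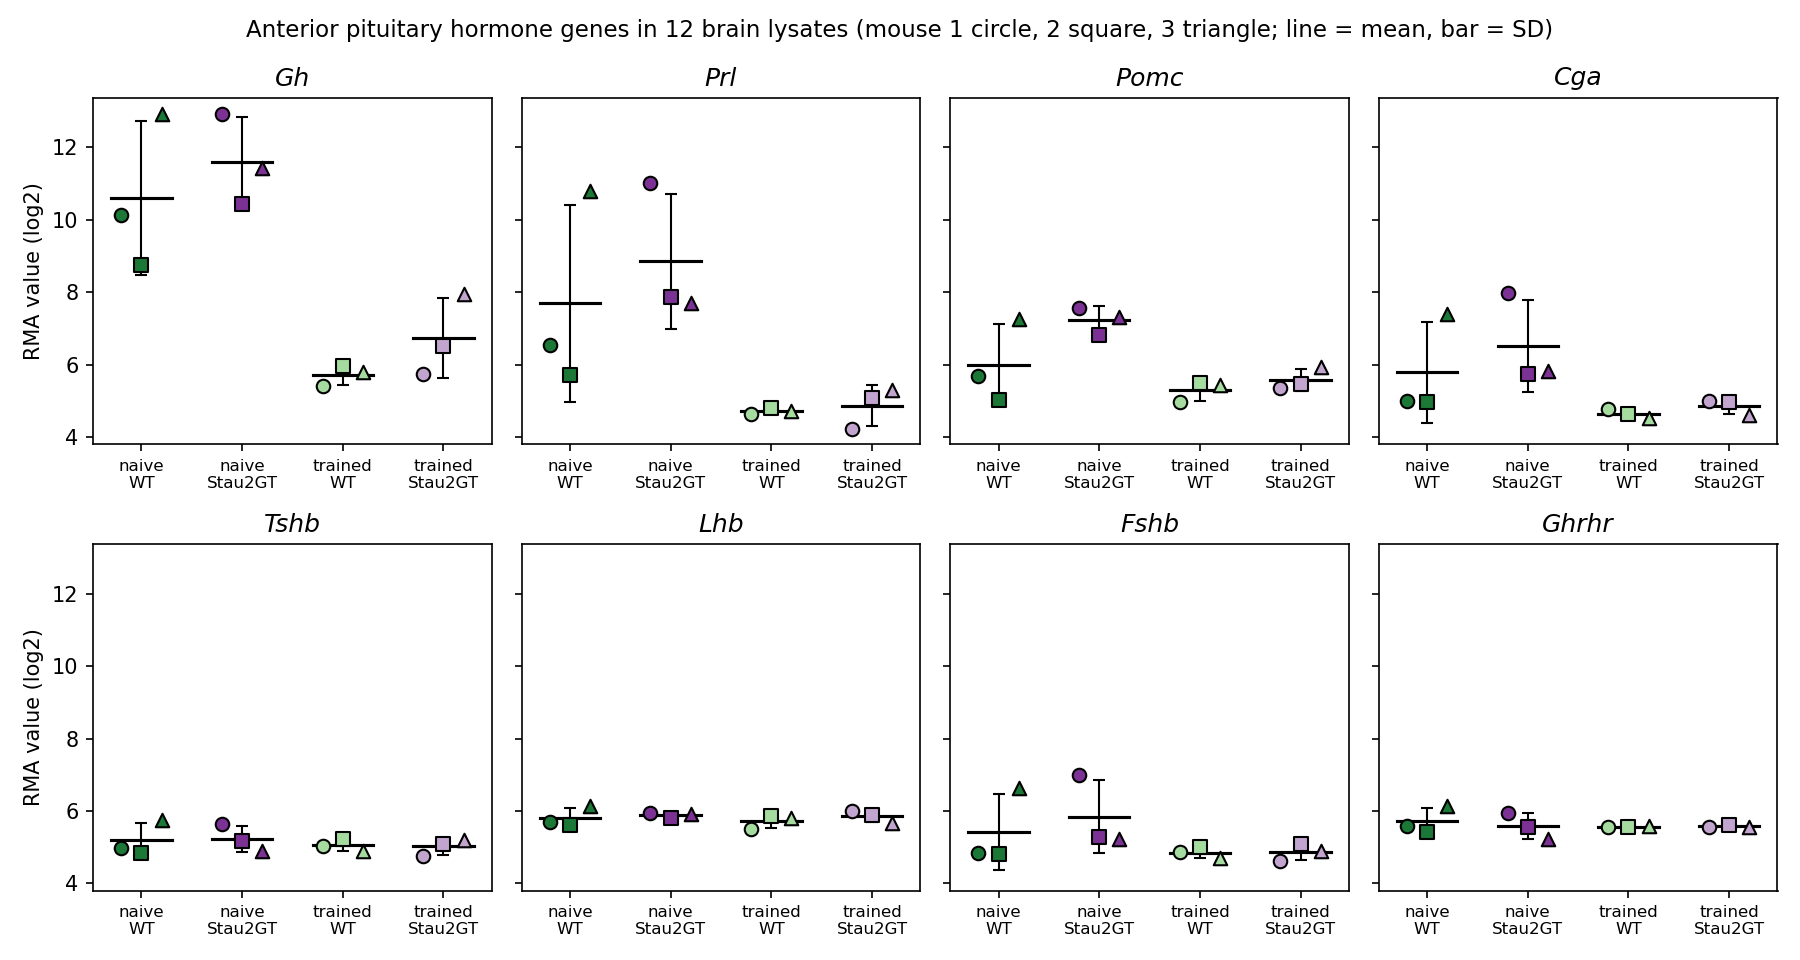
Log2 RMA value (y axis) of the 8 genes in each of the 12 brains by group (x axis). Circle, square and triangle are mice 1, 2 and 3 of a group, the line is the group mean and the bar the SD (n = 3). *Gh* and *Prl* are the genes whose 6 trained brains all lie below the 6 naive brains.

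*Pomc*, whose product is cut into ACTH and melanocyte-stimulating hormone, was measured at 5.69, 5.04 and 7.25 in naive WT and at 7.56, 6.82 and 7.33 in naive Stau2GT brains. In trained brains it was 4.97, 5.5 and 5.44 in WT and 5.36, 5.46 and 5.93 in Stau2GT mice. Within Stau2GT mice the naive and trained values were separate, whereas in WT mice naive mouse 2 lay inside the trained range. The difference after training was -1.65 in Stau2GT (SE 0.45, limma adjusted p = 0.0548) and -0.69 in WT brains (SE 0.45, limma adjusted p = 0.495). Without naive WT mouse 3 the WT value was -0.062. The Stau2GT value passed with the filter at a log2 value of 6 (limma adjusted p = 0.0451), median centring (0.0429), trend and robust moderation (0.0426) and the replicate block (0.0459). It also passed with only the arrays of the 2 groups compared (0.0318). It did not pass without the filter, under quantile normalization, with array weights or in the methods' t-test.

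*Cga* encodes the alpha subunit that thyrotropin and both gonadotropins share. Its naive values were 5.01, 4.96 and 7.40 in WT and 7.99, 5.74 and 5.83 in Stau2GT brains, so that 1 brain in each genotype stood well above the other 2. Its trained values were 4.77, 4.63 and 4.54 in WT and 5.01, 4.97 and 4.62 in Stau2GT brains. The log2 difference after training was -1.14 in WT (limma adjusted p = 0.446) and -1.65 in Stau2GT brains (limma adjusted p = 0.152), although the 3 and 3 arrays did not overlap in either genotype. Without naive WT mouse 3 the WT value was -0.34, and without naive Stau2GT mouse 1 the Stau2GT value was -0.92.

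The beta subunits give each glycoprotein hormone its identity. *Fshb*, for follicle-stimulating hormone, had the pattern of *Cga*: 4.84, 4.80 and 6.64 in naive WT and 7.0, 5.28 and 5.23 in naive Stau2GT brains. In trained brains *Fshb* stayed between 4.63 and 5.09. Its difference after training was -0.57 in WT and -0.96 in Stau2GT brains (limma adjusted p = 0.645 and 0.267). It was 0.033 in WT brains without naive WT mouse 3 and -0.38 in Stau2GT brains without naive Stau2GT mouse 1.

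*Tshb*, for thyrotropin, varied less. The naive WT values were 4.98, 4.84 and 5.74, and the naive Stau2GT values were 5.63, 5.16 and 4.90, with the same brains on top as for *Fshb*. The trained values ran from 4.77 to 5.22 and overlapped the naive ones in both genotypes. *Lhb*, for luteinizing hormone, spread over 0.51 in each state, from 5.62 to 6.13 in naive and from 5.5 to 6.01 in trained brains. Its groups overlapped in every comparison.

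*Ghrhr* encodes the receptor through which hypothalamic growth hormone-releasing hormone acts on somatotrophs. Its naive values were 5.59, 5.42 and 6.14 in WT and 5.95, 5.56 and 5.24 in Stau2GT brains, a range of 0.90. All 6 trained values lay between 5.55 and 5.61. The means hardly differed between states (-0.15 in WT, -0.00 in Stau2GT brains), and naive values lay on both sides of the trained ones.

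**Figure D2:**
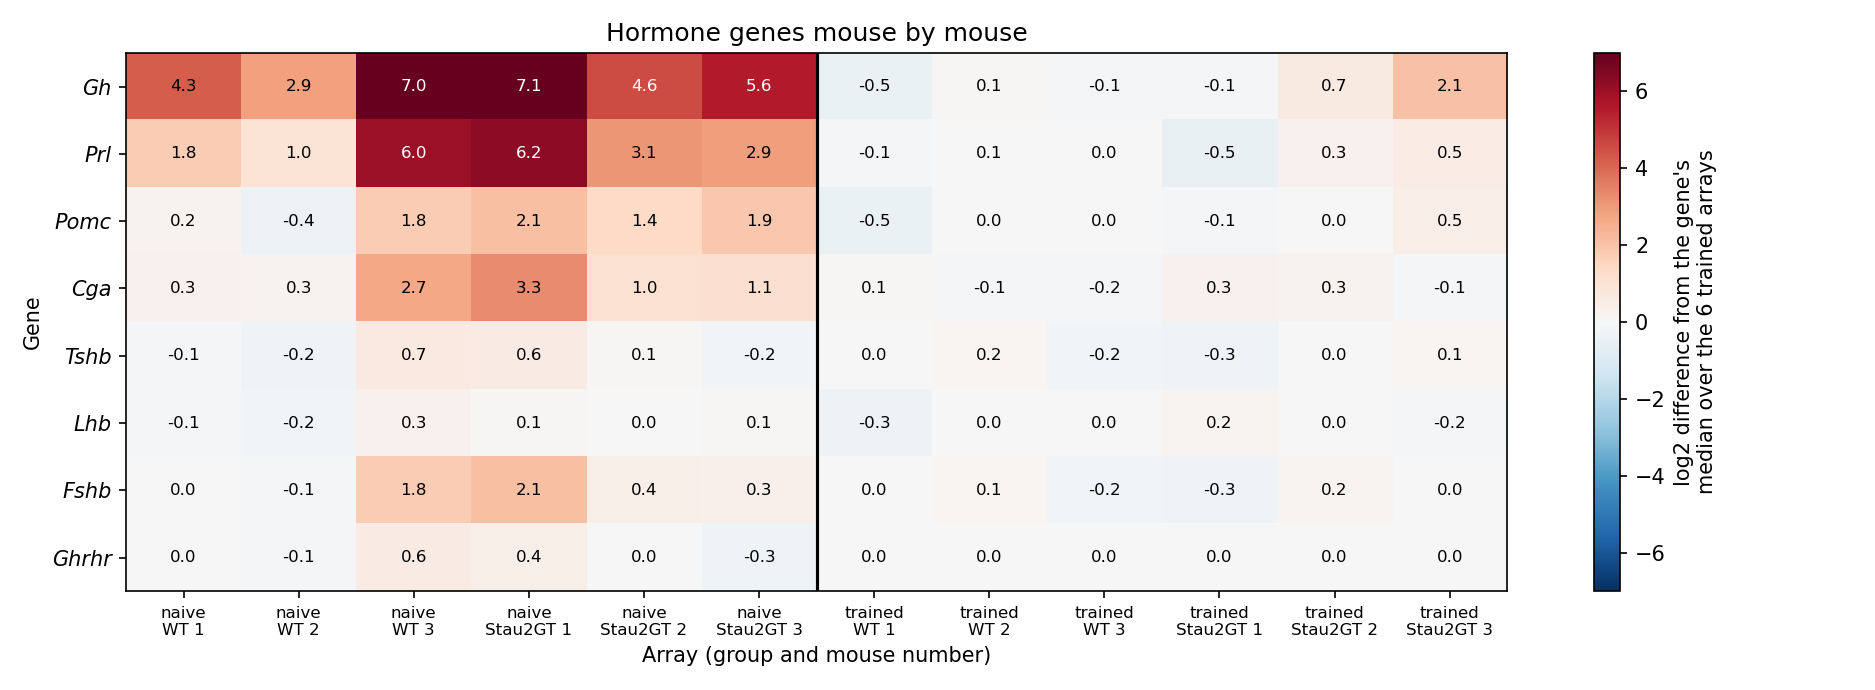
Log2 difference of each value from the gene's median over the 6 trained arrays (color and printed numbers), with 1 row per gene and 1 column per brain, naive left of the line and trained right. Naive WT mouse 3 and naive Stau2GT mouse 1 carry the highest colors for *Gh*, *Prl*, *Cga* and *Fshb*, and the trained columns stay near 0 except for *Gh* in trained Stau2GT mouse 3 (2.1).

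The hormone genes varied together from brain to brain in the naive state. Naive WT mouse 3 and naive Stau2GT mouse 1 held both of the highest naive values for 7 of the 8 genes. The exception was *Pomc*, for which naive Stau2GT mouse 3 (7.33) lay just above naive WT mouse 3 (7.25). The same pair of brains held both top places for 6.27% of all 27966 clusters tested. The pair joins 1 mouse of each genotype and was picked out after its values were seen, so no test was made of it. The gap between the lower of these brains and the next naive brain was 2.93 for *Prl*, 1.57 for *Cga*, 1.48 for *Gh* and 1.36 for *Fshb*. For *Lhb* the gap was only 0.03. At the other end, naive WT mouse 2 gave the lowest naive value in 7 of the 8 genes, all but *Ghrhr*.

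Over the 6 naive brains all 28 pairs of genes had a positive Pearson r, from 0.41 to 0.995 with a median of 0.86. The closest pair was *Cga* and *Fshb*, the subunits of follicle-stimulating hormone (r = 0.995, exact permutation p = 0.00833, Spearman rho = 0.94, exact permutation p = 0.0167). For *Gh* and *Prl* r was 0.96 (exact permutation p = 0.00833, rho = 0.94, exact permutation p = 0.0167), and it was 0.93 without the 2 brains farthest from the median of *Gh*. Those were naive WT mouse 2 and naive Stau2GT mouse 1, so naive WT mouse 3, with high *Gh* and *Prl*, stayed in. *Cga* with *Fshb* kept r = 0.99 when the 2 brains farthest from the median of *Cga* were left out. No pair passed after Benjamini-Hochberg adjustment over the 56 pairs of both states (lowest adjusted p = 0.0583 for r). With the 2 brains farthest from the median of 1 gene of the pair left out of every pair, 25 of 28 naive pairs kept a positive r (median 0.68). The 3 that did not were those of *Ghrhr* with *Prl* (-0.16), *Cga* (-0.42) and *Fshb* (-0.28). Where that gene was *Gh*, *Pomc* or *Lhb*, naive WT mouse 3 or naive Stau2GT mouse 1 or both stayed in. Where it was *Prl*, *Cga*, *Tshb* or *Fshb*, both of these mice were left out, which leaves 4 brains. There r was 0.96 for *Prl* with *Fshb*, 0.99 for *Cga* with *Fshb* and 0.28 for *Tshb* with *Lhb*. The 3 pairs with a negative r also lie there. The count of 25 therefore mixes pairs with and without these mice. The names of all naive arrays share a prefix, taken here as a batch, and these correlations describe 6 brains.

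**Figure D3:**
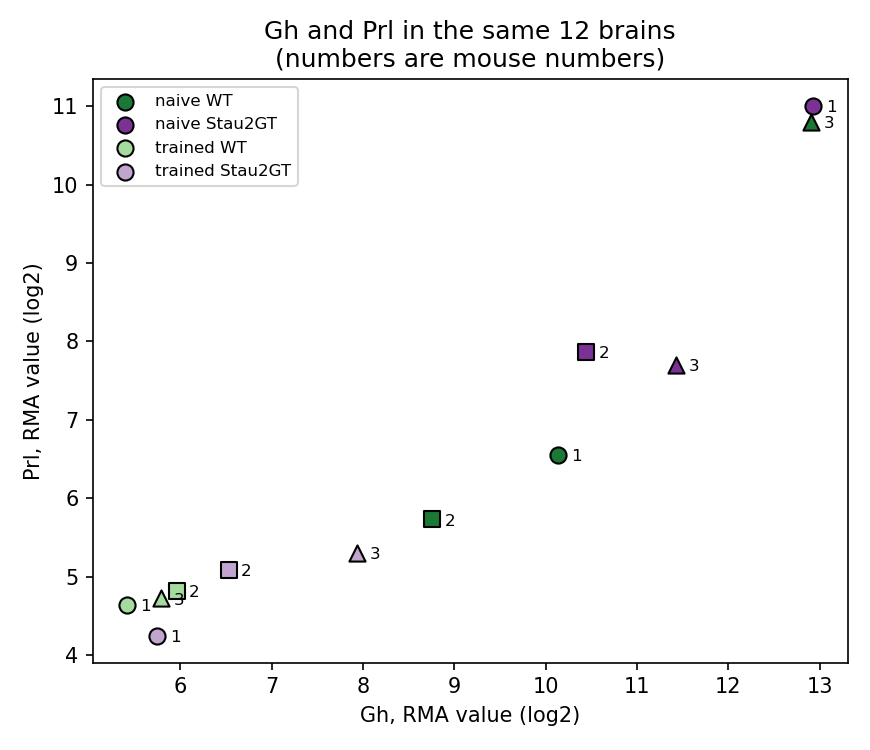
Log2 RMA value of *Prl* (y axis) against *Gh* (x axis) in each of the 12 brains, colored by group, with the mouse number beside each point. Naive WT mouse 3 and naive Stau2GT mouse 1 lie together at the upper right, the other 4 naive brains in the middle and the trained brains at the lower left, with trained Stau2GT mouse 3 the highest of these on both axes.

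In the 6 trained brains the pairs did not share a direction: 20 of 28 had a positive r, the range was -0.41 to 0.89 and the median 0.26. *Gh* still went with *Pomc* (r = 0.89, exact permutation p = 0.0194, rho = 0.94, exact permutation p = 0.0167) and with *Prl* (r = 0.82, exact permutation p = 0.0194, rho = 0.94, exact permutation p = 0.0167). Neither passed after adjustment (adjusted p = 0.0778 for r). Without the 2 brains farthest from the median of *Gh*, r was 0.98 for *Pomc* but 0.22 for *Prl*, so the latter rests on those brains. Trained Stau2GT mouse 3 gave the highest trained value of *Gh* (7.94), *Prl* (5.30) and *Pomc* (5.93), but not of *Cga* (4.62) or *Fshb* (4.90).

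The spread between brains of 1 group was among the widest on the array for 5 of the 8 genes. With group means removed, *Prl* had the largest within-group SD of all 27966 clusters tested (1.67), *Gh* ranked 4 (1.36), *Cga* 32 (0.95), *Fshb* 76 (0.74) and *Pomc* 173 (0.63). *Tshb* ranked 2090 (0.33), *Ghrhr* 3720 (0.26) and *Lhb* 6958 (0.19). Within the naive arrays alone, *Prl*, *Gh* and *Cga* were the 3 most variable of 16425 genes (SD 2.33, 1.74 and 1.34), with *Fshb* at rank 5 and *Pomc* at rank 7. *Tshb* was at rank 28 (0.43), *Ghrhr* at 61 (0.37) and *Lhb* at 933 (0.20), whereas the median gene had an SD of 0.09. The trained arrays gave *Gh* rank 2 (SD 0.81), *Prl* rank 56 (0.40) and *Pomc* rank 259 (0.30). *Cga*, *Tshb*, *Lhb* and *Fshb* fell to ranks of 1905 to 3070, and *Ghrhr* to 16360.

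Training was compared within each genotype. All 8 genes had lower means in trained than in naive brains of both genotypes, with a median of -0.63 in WT and -1.31 in Stau2GT brains, against a median over all clusters of 0.00 and 0.02. *Gh* was the 1 gene of the 8 called in WT brains, where 1.4% of all clusters were called at an adjusted p under 0.05, and the 1 gene called in Stau2GT brains, where 6.11% were. *Gh* and *Prl* were the genes whose 6 trained values all lay below the 6 naive ones, as did 3.58% of all clusters. Within WT brains 3 of 8 genes (*Gh*, *Prl*, *Cga*) had no overlap between the 3 and 3 arrays, against 22.9% of all clusters in either direction. Within Stau2GT brains it was 5 of 8 (*Gh*, *Prl*, *Pomc*, *Cga*, *Fshb*), against 28.1%. Since *Prl*, *Cga* and *Fshb* passed the filter through their naive values, these counts and medians are given as a description and nothing is drawn from them. Exact permutation tests cannot go below p = 0.1 for 3 mice against 3, the value these genes reached. The genotypes are not shown to differ in this response, since the interaction called 0 of 8 genes (0.0215% of all clusters; lowest limma adjusted p = 0.763, for *Pomc*).

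Both calls for *Gh* were lost when some single arrays were left out. In WT brains the limma adjusted p of *Gh* rose to 0.0722 without naive WT mouse 1, 0.0753 without naive WT mouse 3, and 0.0547 without naive Stau2GT mouse 3. It was 0.0995, 0.0921 and 0.105 without trained WT mouse 1, 2 and 3. The log2 difference itself stayed between -5.80 and -3.73 when each array was left out in turn. In Stau2GT brains the call was lost without naive Stau2GT mouse 1 (adjusted p = 0.0706), naive Stau2GT mouse 3 (0.0575) or trained Stau2GT mouse 2 (0.0667). The difference ran from -5.46 to -4.20 over all 12 arrays left out in turn. Conversely, *Pomc* passed in Stau2GT brains without naive WT mouse 2 (adjusted p = 0.0375) or mouse 3 (0.0132), and *Prl* passed without naive WT mouse 3 (0.0229). With both naive WT mouse 3 and naive Stau2GT mouse 1 left out, *Gh* was at -3.73 in WT brains (limma adjusted p = 0.0579). In Stau2GT brains 4 genes were then called: *Gh*, *Prl* at -2.91, *Pomc* at -1.49 and *Cga* at -0.92 (limma adjusted p = 0.0155 for *Prl*, 0.0464 for *Pomc* and 0.0265 for *Cga*). Of all 27966 clusters, 251 were called in Stau2GT and 75 in WT brains under that setting. The 2 mice were picked after the values of these genes were seen, so nothing is drawn from these calls.

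The names of all naive arrays start with 1 prefix and those of all trained arrays with another, and the prefixes are taken here as array batches. An effect of training and an effect of the array batch therefore cannot be told apart. Nor can training be told apart from any difference in age between the mice of the 2 states or in how their brains were dissected. The array medians ran from 5.68 to 5.79. Pairs of arrays correlated at 0.978 to 0.988 within groups and at 0.966 to 0.982 between training states.

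**Figure D4:**
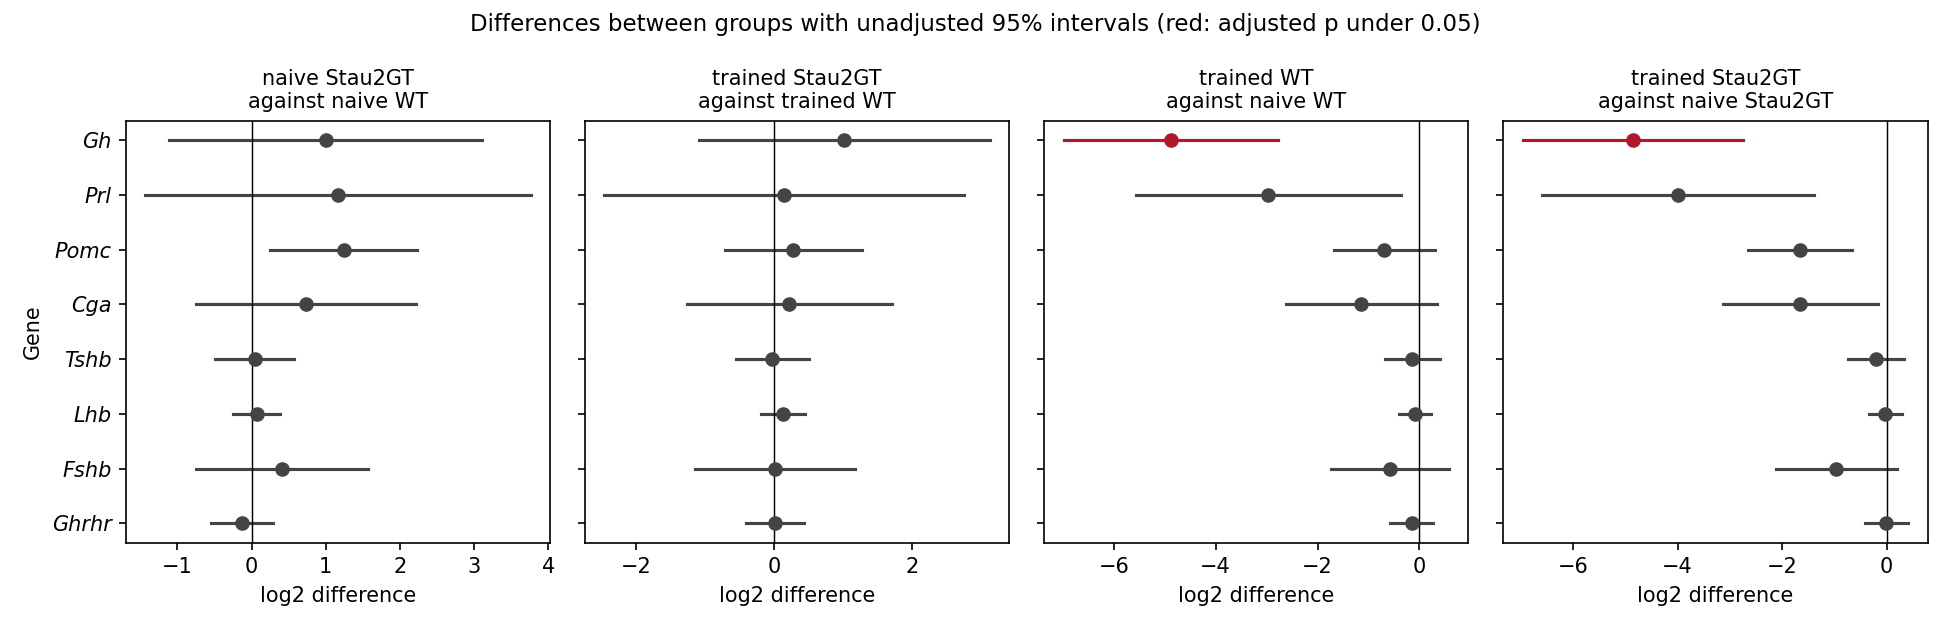
Log2 difference between groups (x axis, points) with unadjusted 95% intervals from limma (bars) for the 8 genes (y axis) in 4 comparisons. The interval of *Gh* lies below 0 in both training comparisons, with an adjusted p under 0.05 (red), and no gene is red in the genotype comparisons on the left.

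Genotype was compared within each training state. In naive brains 7 of 8 genes had a higher mean in Stau2GT than in WT mice, yet 0 of 8 were called (0.0858% of all clusters were called) and 0 of 8 were free of overlap (12% of all clusters were). *Gh* was higher by 1.00 on the log2 scale (95% interval -1.11 to 3.10) and *Prl* by 1.17 (-1.43 to 3.77), intervals that leave room for large differences either way. With each array left out in turn, the *Gh* difference ran from 0.075 (without naive WT mouse 2) to 2.15 (without naive WT mouse 3) and that of *Prl* from 0.092 (without naive Stau2GT mouse 1) to 2.72 (without naive WT mouse 3). *Pomc* was higher by 1.24 (0.25 to 2.23, unadjusted p = 0.0186 from limma, limma adjusted p = 0.954), the lowest p of the 8. Without naive WT mouse 3 the *Pomc* difference was 1.87 (limma adjusted p = 0.0533), its largest value over the arrays left out in turn, and without naive WT mouse 2 it was 0.77. Across all clusters, limma gave 1397 with an unadjusted p under 0.05 in this comparison.

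In trained brains the means of *Gh* differed by 1.02 (95% interval -1.09 to 3.12, limma adjusted p = 0.809), with trained Stau2GT mouse 3 far above the rest and mouse 1 inside the WT range. *Prl* differed by 0.15, *Pomc* by 0.28 and *Cga* by 0.22, and *Tshb*, *Lhb*, *Fshb* and *Ghrhr* by 0.13 or less. Again 0 of 8 genes were called, against 0.179% of all clusters, and 0 of 8 had separate groups, against 11.2%. Over both states together the genotype comparison called 0 of 8 genes (0.118% of all clusters), with *Pomc* at 0.76 (unadjusted p = 0.0357 from limma, limma adjusted p = 0.766).

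The naive ranges of *Prl*, *Gh*, *Cga*, *Pomc* and *Fshb* (2.20 or more) exceeded those of all other genes in the lists of the gland, its control and neighboring tissues, whereas *Tshb*, *Ghrhr* and *Lhb* (0.90, 0.90 and 0.51) did not. The range over the 6 naive brains had a median of 2.36 on the log2 scale for the 8 genes, against 0.34 for transcription factors of the pituitary (13 measured of 15 listed, 8 above the filter) and 0.35 for its receptors of releasing signals (12 of 12, 10 above the filter). It was 0.32 for hypothalamic releasing and arcuate peptides (15 of 16, 14 above the filter) and 0.36 for receptors of pituitary hormones (8 of 10, 5 above the filter). The relatives of *Prl* and *Gh* that the placenta expresses (17 of 19, 0 above the filter) had a median range of 0.29. Averaged per naive array, that list lay at 3.10 to 3.16 and the transcription factors at 5.03 to 5.19, below the array medians (5.68 to 5.79). Values near background may hide variation, so the narrow ranges of these lists do not show that their genes were steady.

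Among the transcription factors the widest naive ranges were those of *Neurod4* (0.60), *Tbx19* (0.57), which activates *Pomc* in corticotrophs, and *Six6* and *Foxl2* (0.47 each), and the narrowest those of *Nr5a1* and *Pax7* (0.17 each) and *Hesx1* and *Lhx4* (0.20 each). *Tbx19* lay below the filter, with 4.52, 4.44 and 5.01 in naive WT and 4.75, 4.44 and 4.72 in naive Stau2GT brains. The levels of the whole list, averaged per array, ran from 5.03 to 5.19 in naive and from 5.10 to 5.19 in trained brains.

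*Gnrhr*, the receptor by which gonadotrophs sense gonadotropin-releasing hormone, was the receptor with the widest naive range (1.05), also below the filter. It gave 4.40, 4.36 and 5.01 in naive WT and 5.41, 4.48 and 4.48 in naive Stau2GT brains, so that naive WT mouse 3 and naive Stau2GT mouse 1 were again highest. In trained brains *Gnrhr* ran from 4.29 to 4.81. Next came *Avpr1b* (0.57) and *Sstr5* (0.44), while *Crhr1* (0.09), *Drd2* (0.12) and *Sstr3* (0.26), which brain neurons also express, varied least. Both brains of that pair stood above the other 4 in 3 of 13 transcription factors, 3 of 12 receptors and 1 of 15 hypothalamic peptides.

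In these brain lysates, transcripts of the hypothalamic peptides that act on these cells varied little between naive brains. *Ghrh*, which stimulates somatotrophs, ran from 5.51 to 5.72 over the naive brains (range 0.21), and *Sst*, which restrains them, from 10.80 to 10.96 (0.16). The *Ghrh* values lay near the array medians (5.68 to 5.79), so its narrow range may reflect background. A lysate does not separate hypothalamic cells from other cells, so peptide release onto the gland was not tested. *Trh*, which drives thyrotrophs and lactotrophs, had the widest naive range of this list (0.58), lower in naive Stau2GT (6.33, 6.36 and 6.12) than in naive WT brains (6.66, 6.70 and 6.63), a difference that limma did not call (-0.39, adjusted p = 0.798). None of the 8 pituitary transcription factors, 10 releasing-signal receptors and 14 hypothalamic peptides tested was called in any of the 6 comparisons, which called 0.0215% to 6.11% of all clusters. *Gnrhr*, *Tbx19* and *Neurod4* lay below the filter and were not tested.

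**Figure D5:**
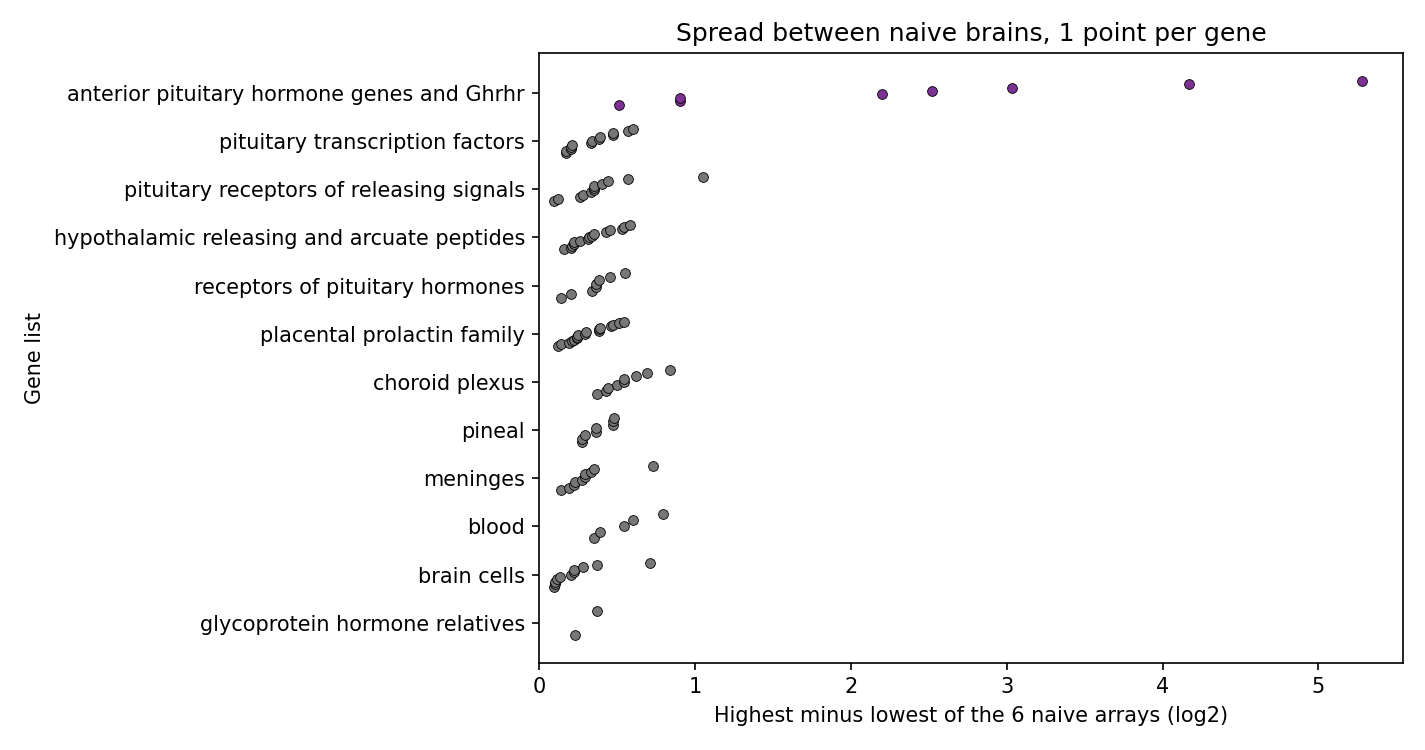
Highest minus lowest log2 RMA value over the 6 naive brains (x axis), with 1 point per gene in rows of gene lists (y axis) and the hormone genes and *Ghrhr* in purple. The hormone genes reach 5.28, and the widest range in any other list is 1.05 (*Gnrhr*).

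Of 5 receptors of pituitary hormones tested, 1 was called in trained against naive Stau2GT brains, where 6.11% of all clusters were: *Mc1r*, a melanocortin receptor, was higher in trained Stau2GT (6.16, 6.14 and 6.06) than in naive Stau2GT brains (5.66, 5.71 and 5.76), by 0.41 (limma adjusted p = 0.0231). In WT brains *Mc1r* ranged from 5.64 to 5.78 before and from 5.56 to 5.88 after training. Markers of tissues that can adhere to a dissected brain were set beside the hormone genes. Choroid plexus genes (9 of 10 measured, 9 above the filter) had a median naive range of 0.54 and meningeal genes (10 of 10, 9 above the filter) 0.28. It was 0.36 for pineal genes (8 of 9, 3 above the filter) and 0.54 for blood genes (5 of 10, 2 above the filter). The mean level of the choroid plexus list was 6.82 to 7.26 in naive and 6.75 to 7.23 in trained arrays, that of the meningeal list 7.14 to 7.27 and 6.99 to 7.18, that of the pineal list 4.43 to 4.59 and 4.47 to 4.73, and that of the blood list 4.45 to 4.82 and 4.6 to 4.83. For the 8 hormone and receptor genes it was 5.65 to 8.0 in naive and 5.09 to 5.64 in trained arrays. The pineal and blood lists lay below the array medians (5.68 to 5.79), so their ranges do not show that their genes were steady. Most meningeal genes lay below 0 in both training comparisons, with medians much nearer 0 than those of the 8 genes (-0.63 in WT and -1.31 in Stau2GT brains). In WT brains 8 of 9 tested were at or below 0 (median -0.08, against 0.00 over all clusters), with *Slc22a6* at 0. In Stau2GT brains 9 of 9 were below 0 (median -0.11, against 0.02). Of the choroid plexus genes 7 of 9 lay below 0 in WT (median -0.06) and 5 of 9 in Stau2GT brains (median -0.10). Of the 3 pineal genes tested 2 lay below 0 in WT (median -0.04) and 0 in Stau2GT brains (median 0.08). Of the 2 blood genes tested 2 lay below 0 in WT (median -0.10) and 0 in Stau2GT brains (median 0.24). Among the tested genes of these 4 tissue lists 1, the meningeal matrix gene *Dcn*, was called (-0.37 in trained against naive Stau2GT brains, limma adjusted p = 0.0201, in the comparison that called 6.11% of all clusters). The part of attached tissue in the hormone values was not tested.

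The 10 genes whose deviations from the group means over the 12 arrays were most like those of *Prl* had r of 0.90 to 0.97, and 5 of them were *Fshb* (0.97), *Cga* (0.95), *Tshb* (0.94), *Ghrhr* (0.94) and *Gh* (0.92). The remaining ones were *Phactr4*, *A430105J06Rik*, *Ranbp9*, *Creb3l2* and *Tafa3*, whose naive ranges were only 0.18 to 0.69. For *Gh* the 10 had r of 0.89 to 0.95 and included *Pomc* (0.95) and *Prl* (0.92). The others were *Ranbp9*, *Ncapg2*, *2010315B03Rik*, *Ap4m1*, *Dtymk*, *Tafa3*, *Pdpn* and *Sec16a*, with naive ranges of 0.18 to 0.68. These values are a description over 12 arrays, which share a name prefix, taken here as a batch, within each training state.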

How the data were processed

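The authors ran RMA (R package oligo) on the array signals, and the deposited table holds the resulting log2 values, 1 for each transcript cluster in each array. The sources used here do not give the version of oligo or say if both training states went through RMA jointly. The 12 columns were used without further scaling. Of 41345 clusters, 23521 had a single symbol in the platform annotation. Clusters above a log2 value of 5 in 3 or more arrays (27966, standing for 16425 genes) were tested with limma 3.58.1 in R 4.3.3, with 4 group means over the 12 arrays and Benjamini-Hochberg adjustment over all clusters, called at an adjusted p under 0.05. Single genes were compared by two-sided exact permutation tests (scipy 1.17.1). The number of arrays limits the precision. The labels number the replicates of a group but do not say that each is a separate mouse, as is taken here. Each p-value therefore sets a difference against the spread between these samples. In limma that spread is pooled over all 4 groups, although for *Prl* the SD was 2.33 in naive and 0.40 in trained arrays. The genes and lists were chosen with earlier results of these data known. The text names the 9 listed genes, other list genes with an adjusted p under 0.05, the 3 with the widest and the 3 with the narrowest range in a described list, genes a result turns on, and the 10 genes most like *Gh* and *Prl*. Alternatives covered the filter, scaling, moderation, array weights, a replicate block, the samples fitted, the methods' t-test and each array left out. Promoters are from RefSeq (GRCm38.p6).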

Additional observations from a re-analysis of the deposited data

How the results depend on the processing

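The alternatives kept the sign of every *Gh*, *Pomc* and *Cga* difference by training and genotype except as listed here, and the causes of the changes were not tested. *Gh* in WT brains lost its call without the filter (limma adjusted p = 0.0518), with only the arrays of the 2 groups compared (0.0938) and in the methods' t-test (0.240), and *Gh* in Stau2GT brains in the methods' t-test (0.165). The genes called among the 8 in WT brains fell from 1 to 0 under those 3 settings and with both of the naive mice with high hormone values left out (chosen after seeing the data), and ranged from 0 to 1 with each array left out in turn. In Stau2GT brains they were 2 with the filter at a log2 value of 6, median centring, trend and robust moderation, or only the arrays of the 2 groups compared, 0 in the t-test, 4 without both of those naive mice, and 0 to 3 over single arrays. In the main fit 1.4% of all clusters were called for training in WT and 6.11% in Stau2GT brains. The filter at 6 also changes the set of clusters tested, and nothing is drawn from the counts for the 8 genes. The replicate numbers did not pair the arrays (r of their deviations -0.03 to 0.07 over 12 pairs, 0 above 0.1). With the replicate block, 2 genes were called in Stau2GT brains, the added one being *Pomc* (adjusted p = 0.0459), and the clusters called were 37 for trained and 22 for naive genotype, 4 for the interaction, 273 and 1394 for training in WT and Stau2GT brains, and 26 over both states.

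Counts over all clusters moved more. For trained genotype 50 became 29 without the filter, 26 with array weights, 16 with only the 2 groups, 1 in the t-test, 24 without both of those naive mice, and 22 to 47 over single arrays. For naive genotype 24 became 0 in the t-test and 21 to 27 over single arrays, for the interaction 6 became 4 to 10, and over both states 33 became 19 without both mice and 25 to 37 over single arrays. For training in WT brains 391 became 661 with trend and robust moderation, 730 with array weights, 125 with only the 2 groups, 12 in the t-test, 75 without both mice, and 105 (without trained WT mouse 3) to 468. For training in Stau2GT brains 1708 became 961 with array weights, 261 with only the 2 groups, 0 in the t-test, 251 without both mice, and 431 (without naive Stau2GT mouse 1) to 2150.

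Small differences changed sign. For trained genotype *Fshb* was at -0.018 under quantile normalization and -0.017 under median centring, and *Ghrhr* at -0.018 and -0.020. Over single arrays *Prl* ran from -0.067 to 0.46, *Tshb* from -0.12 to 0.10 and *Fshb* from -0.088 to 0.14. For naive genotype *Cga* ran from -0.005 to 1.54, *Tshb* from -0.16 to 0.32, *Lhb* from -0.032 to 0.22, *Fshb* from -0.17 to 1.02 and *Ghrhr* from -0.32 to 0.078. For training in WT brains *Tshb* ran from -0.31 to 0.14, *Lhb* from -0.19 to 0.063, *Fshb* from -0.89 to 0.033 and *Ghrhr* from -0.30 to 0.058. The upper ends were those without naive WT mouse 3, and without both mice the values were the same (0.14, 0.063, 0.033 and 0.058). For training in Stau2GT brains *Lhb* ran from -0.10 to 0.062 and *Ghrhr* from -0.18 to 0.18, and without both mice they were 0.0017 and 0.18.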

Other observations

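Outside the hormone genes, a search made after the values were seen asked which genes had an r above 0.8 to *Prl* over the 12 deviations from group means and also a naive range above 0.8. It returned 1 gene, *Dlk1* (r = 0.88), an imprinted gene that is also expressed in the pituitary. Its log2 values were 6.81, 6.53 and 7.43 in naive WT and 7.54, 6.95 and 6.81 in naive Stau2GT brains, so naive WT mouse 3 and naive Stau2GT mouse 1 were highest. In trained brains *Dlk1* was 6.85, 6.82 and 7.04 in WT and 7.11, 6.75 and 7.10 in Stau2GT mice, inside the naive range. The 1 gene between *Cga* and *Fshb* in the order of naive SD, also noted after the values were seen, was *Lcn2* (SD 1.34), a secreted protein of the acute phase response and no gene of the pituitary lists. The relatives of the glycoprotein hormones without a role as pituitary hormones, *Gpha2* and *Gphb5*, had a median naive range of 0.30, against 3.03 for *Cga* and 2.20 for *Fshb*.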
